A study of Mus musculus with 6 samples.

Results

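The SOCS family holds 8 genes, Socs1 to Socs7 and Cish, taken by gene name from the 55487 genes counted in colonic crypts of mice with and without deletion of an m6A writer gene. All 8 had enough reads to be tested, so no member was lost to the filter on low counts. Of these, Socs1, Socs2, Socs3, Socs4, Socs5 and Socs6 rose in mutant crypts, none fell, and Socs7 and Cish did not pass the test. The rises ran from 0.46 on the log2 scale for Socs4 to 2.57 for Socs1.

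The libraries were made from polyadenylated RNA of isolated colonic crypt cells of C57BL/6 mice, all 4 weeks old. Controls had the genotype M14(f/f), with loxP sites around part of the gene, and mutants had the genotype M14(f/f);Villin-Cre, with 3 libraries in each group. M14 is read here as Mettl14, which works with Mettl3 to write N6-methyladenosine (m6A) on RNA. Both groups carried the floxed alleles, and the Villin promoter directs Cre to gut epithelium, so other cell types in a preparation keep the floxed alleles. As controls lacked Cre, the effects of Cre and of the deletion cannot be told apart.

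SOCS proteins are brakes on cytokine signalling. A cytokine brings its receptor chains together, JAK kinases on those chains phosphorylate STAT transcription factors, and the STATs switch on target genes that include several SOCS genes, whose proteins then block the receptor or kinase. Each SOCS protein joins an SH2 domain, which grips phosphorylated tyrosine, to a C-terminal SOCS box, which recruits a ubiquitin ligase built on Elongin B, Elongin C and Cullin 5. In the mouse intestine Socs3 restrains STAT3 signals of the interleukin 6 and interleukin 22 type, and Socs2 restrains growth hormone. In mouse T cells, the messages of Socs1, Socs3 and Cish are known to carry m6A and to decay more slowly when the writer is lost. These libraries measured neither m6A nor decay.

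Promoter entries exist in the RefSeq table (GRCm38.p6, 250 bases before to 50 after each gene's start) for 4 members: Socs1, Socs3, Socs4 and Cish. The letters TTCNNNGAA, the core of STAT binding sites, occur in 8.30% of the 32851 promoter entries, and a pair of GAAA runs with any 2 bases between them, the core of sites for interferon regulatory factors, occurs in 3.44%, both searched on both strands. The stretches below are the 30 bases around each match, 5′ to 3′ on the gene's strand, with matches in capitals. Within this window Socs1 held matches of the interferon type, and Socs3 and Cish held matches of the STAT type.
Socs1 (chr16:10785597-10785626, minus strand): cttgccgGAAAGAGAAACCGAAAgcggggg
Socs3 (chr11:117969502-117969531, minus strand): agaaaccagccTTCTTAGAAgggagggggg
Cish (chr9:107296654-107296683, plus strand): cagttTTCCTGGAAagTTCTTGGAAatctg
Socs1 held 2 overlapping matches, at -83 to -74 and -77 to -68 from the start. Socs3 held 1 match, at -154 to -146. Cish held 2 separate matches of TTCNNNGAA, at 1 to 9 and 12 to 20, and 0.457% of entries held 2 or more. The Socs4 entry held neither motif. For Socs3 and Cish the RefSeq start lies 681 and 633 bases inside the outermost start of the gene in the count files, so their matches lie within the annotated gene spans. A match is a run of letters and shows no binding.

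The letters GGACT, the form in which m6A is most often written, were counted in the longest coding transcript of each member (GENCODE vM21, GRCm38). The 8 members had 0.291 to 1.40 GGACT per kb, beside a median of 1.06 over 14049 tested genes, and 4 of 8 were above that median. Cish was the densest with 1.40 per kb, a density that 30.3% of genes reached, and Socs4 the sparsest with 0.291, which 91.0% reached. Socs1 had 1 GGACT in 2908 bases (0.344 per kb), and Socs7 had 9 in 7015 bases (1.28 per kb). Whether GGACT density goes with the size of a change was not tested. The copy nearest to the stop codon is shown for the members whose m6A has been described in T cells, with GGACT in capitals.
Socs1 (chr16:10783468-10783492, minus strand): gaccattcctGGACTggagaggtgg
Socs3 (chr11:117967614-117967638, minus strand): acggccacctGGACTcctatgagaa
Cish (chr9:107300827-107300851, plus strand): tggccgacgtGGACTgcctacccct
The Socs1 copy begins 751 bases after the stop codon, in the 3′ UTR. The Socs3 and Cish copies begin at -75 and -63 from the end of the stop codon, in coding sequence.

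Library totals ran from 24181631 to 35183636 counts, and the genotypes parted along the leading principal component (73.5% of variance). A count of 0 allows up to 0.0853 to 0.124 CPM (3 counts; counting error only), and every member lay well above that floor in every library. The targeted gene followed the labels: Mettl14 stood at 20.8 to 26.1 TMM-scaled CPM (library-size-scaled counts) in controls and at 10.5 to 13.97 CPM in mutants. Sex is not labelled, and mutant 1 and mutant 2 stood apart in sex-linked genes. By these genes the controls and mutant 3 read as male, mutant 1 as female and mutant 2 as carrying both signals. Sex was thus not balanced between the genotypes, and whether mutant 2 came from several animals is not known. Xist was at 1.28 to 1.77 CPM in controls and mutant 3 but at 651 CPM in mutant 1 and 53.1 CPM in mutant 2. The Y-linked gene Ddx3y was at 37.9 to 58.3 CPM in all libraries except mutant 1, at 0.540 CPM. With these 2 libraries left out 6 SOCS genes were called higher, with the remaining mutant assumed to vary like the controls. Epithelial markers were abundant, at a summed 15052 to 16827 CPM in controls and 11770 to 14110 CPM in mutants.

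The main comparison asked which SOCS transcripts differed between mutant and control crypts. Of 8 members 6 were called higher by edgeR's quasi-likelihood test (Benjamini-Hochberg adjusted p under 0.05 over all genes), which is 75%, beside 23.5% of all 18539 tested genes. The family was chosen with earlier results of these data known, so these shares describe it and do not test it. None was called lower, beside 22.8% of all genes; 0 were lower at an unadjusted p under 0.05, and 0 by DESeq2 or limma-voom. The median log2 fold change was 0.93 for the members and 0.01 for all tested genes. By more than 2-fold 4 members were higher, beside 10.5% of genes, and the ranges of the groups parted for 7 of 8, all higher in mutants, beside 28.7% of genes that parted upward and 56.9% that parted in either direction. In bulk RNA a change in the share of a cell type and a change in RNA per cell cannot be told apart.

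**Figure D1:**
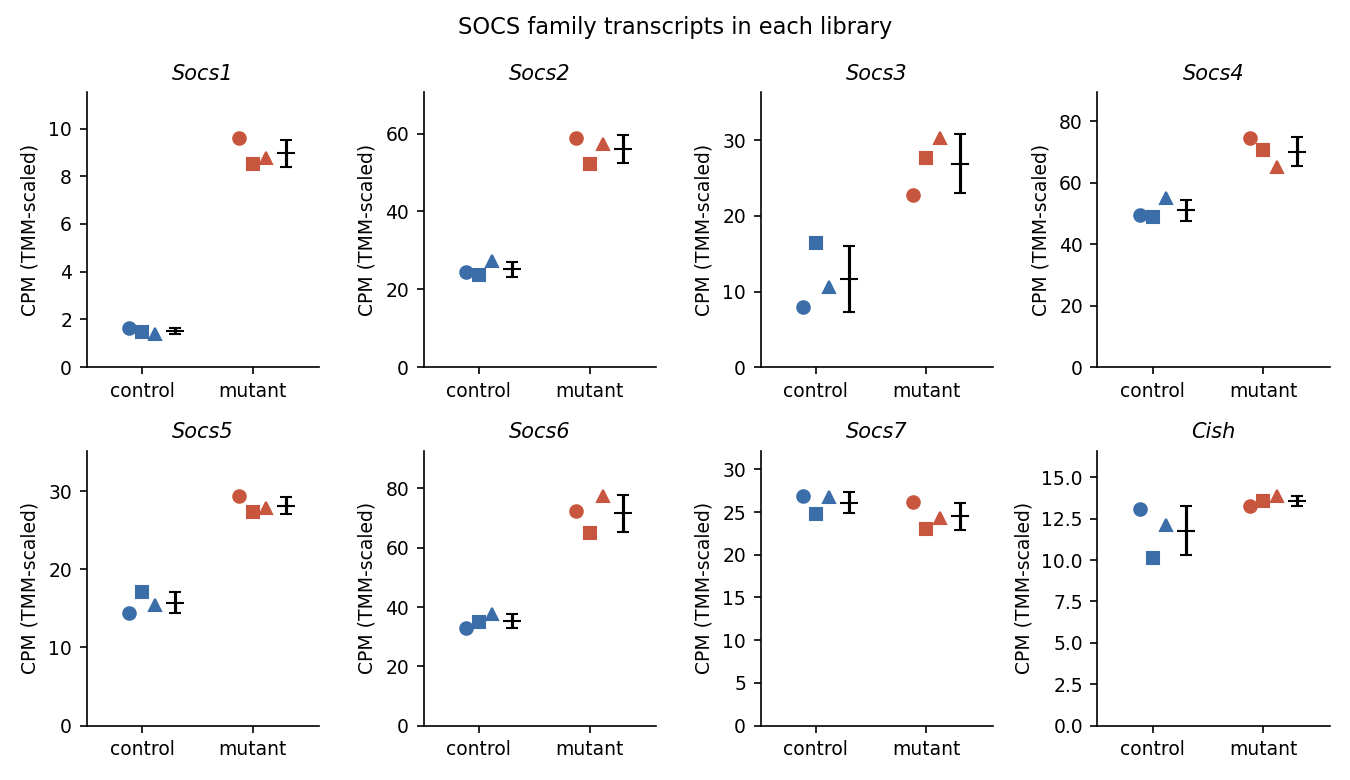
Level of each SOCS transcript in each library, in TMM-scaled CPM (linear axis from 0), with circle, square and triangle for replicates 1, 2 and 3, controls in blue, mutants in red, and the mean with SD in black. Mutant points lie above all control points for every gene but Socs7, with Socs1 at 1.39 to 1.65 against 8.51 to 9.61 CPM, the largest ratio of group means in the family, and a narrow gap for Cish.

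Socs1 (ENSMUSG00000038037.5, chr16:10782240-10785536, minus strand, GRCm38 as in all positions here) encodes a protein that binds JAK kinases directly and shuts off interferon signals. It stood at 1.65, 1.48 and 1.39 CPM in controls 1 to 3, and at 9.61, 8.51 and 8.76 CPM in mutants 1 to 3. The 3 mutants lay close together and far above the controls, with no overlap. The fold was 5.93 (log2 fold change 2.57, SE 0.16, edgeR adjusted p = 2.72e-06). Control libraries held 43 to 58 Socs1 reads and mutants 213 to 321, so the control level rests on few reads.

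Socs3 (ENSMUSG00000053113.3, chr11:117966079-117970047, minus strand) encodes the brake on gp130, the shared receptor chain of the interleukin 6 family. Its levels were 7.92, 16.4 and 10.6 CPM in controls and 22.7, 27.7 and 30.3 CPM in mutants. Control 2 was the highest control and mutant 1 the lowest mutant, and the groups were still separate. Socs3 rose by 1.21 on the log2 scale (SE 0.225, edgeR adjusted p = 0.00174), with the widest standard error in the family. Leaving out control 2 gave 1.53 and leaving out control 1 gave 0.98.

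Cish (ENSMUSG00000032578.7, chr9:107296026-107302784, plus strand) is the founding member and a classical STAT5 target. It stood at 13.1, 10.1 and 12.1 CPM in controls and 13.2, 13.5 and 13.8 CPM in mutants. The mutant values sat just above the highest control, at a distance smaller than the spread among controls. The log2 fold change was 0.20 with a 95% interval from -0.05 to 0.46 (edgeR adjusted p = 0.177). Cish had the smallest shift of the 7 members with higher mutant means.

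Socs2 (ENSMUSG00000020027.18, chr10:95385362-95417180, minus strand) encodes the member that limits growth hormone signalling, and mice without it grow large. It stood at 24.5, 23.6 and 27.4 CPM in controls and at 58.9, 52.1 and 57.3 CPM in mutants. All mutants were at about the same level, above every control. The log2 fold change was 1.16 (SE 0.083, edgeR adjusted p = 6.21e-06).

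Socs4 (ENSMUSG00000048379.9, chr14:47276931-47296102, plus strand) and Socs5 (ENSMUSG00000037104.9, chr17:87107679-87137839, plus strand) form a pair with long N-terminal regions, linked to degradation of the EGF receptor. Socs5 stood at 14.5, 17.1 and 15.5 CPM in controls and 29.3, 27.3 and 27.8 CPM in mutants (log2 fold change 0.84, SE 0.088, edgeR adjusted p = 5.55e-05). Socs4 stood at 49.3, 48.7 and 54.8 CPM in controls and 74.5, 70.7 and 64.9 CPM in mutants (log2 fold change 0.46, SE 0.080, edgeR adjusted p = 0.00118). Neither gene's groups overlapped, and Socs4 was the called member with the smallest rise. Tested against a change of 1.5-fold rather than none, the other 5 rises were still called and that of Socs4 was not.

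Socs6 (ENSMUSG00000056153.15, chr18:88665224-88927481, minus strand) and Socs7 (ENSMUSG00000038485.6, chr11:97362435-97398542, plus strand) form another pair, linked to insulin signalling. Socs6 passed the test and Socs7 did not. Socs6 stood at 33.0, 35.1 and 37.7 CPM in controls and 72.4, 65.0 and 77.3 CPM in mutants, with no overlap (log2 fold change 1.02, SE 0.086, edgeR adjusted p = 1.50e-05). Socs7 stood at 26.8, 24.7 and 26.8 CPM in controls and 26.2, 23.1 and 24.3 CPM in mutants. Its groups overlapped, and the log2 fold change was -0.09 with a 95% interval from -0.27 to 0.09 (edgeR adjusted p = 0.377). The intervals of Socs6 (0.83 to 1.22) and Socs7 did not meet; the difference between the genes was not itself tested.

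**Figure D2:**
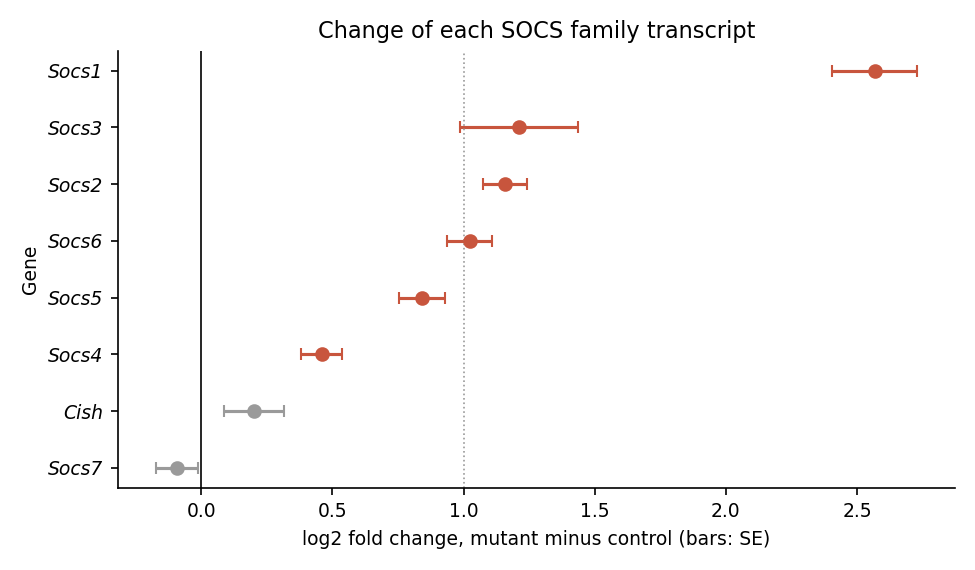
Log2 fold change of each SOCS transcript, mutant minus control, with bars of 1 standard error from the edgeR fit; red marks genes called higher, grey those not past the threshold, and the dotted line a doubling. Socs1 stands alone at 2.57, Socs2, Socs3 and Socs6 lie between 1.02 and 1.21, and Socs7 lies at -0.09.

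To compare the genes with each other, CPM was divided by the gene length in the count files. In controls the order of mean CPM per kb was Socs4 (7.41 ± 0.489, SD, n = 3), Socs3 (4.02 ± 1.497), Socs7 (3.54 ± 0.161), Socs6 (3.11 ± 0.210), Socs2 (2.64 ± 0.208), Socs5 (2.45 ± 0.209), Cish (1.83 ± 0.234) and Socs1 (0.518 ± 0.0465). The ranges of Socs3 and Socs7 overlapped, as did those of Socs2 and Socs5, and the other neighbours in that order did not overlap. In mutants the order was Socs4 (10.2 ± 0.703), Socs3 (9.31 ± 1.33), Socs6 (6.31 ± 0.545), Socs2 (5.89 ± 0.373), Socs5 (4.39 ± 0.162), Socs7 (3.32 ± 0.212), Socs1 (3.08 ± 0.198) and Cish (2.11 ± 0.0471). There Socs4 and Socs3 overlapped, as did Socs6 with Socs2 and Socs7 with Socs1. By this length Socs7 went from the third place to the sixth while its own mean was 3.54 and 3.32, and Cish took the last place from Socs1. The highest mean exceeded the lowest 14.3-fold in controls and 4.83-fold in mutants. Summed over the family, CPM per kb was 23.9 to 26.4 in controls and 43.5 to 45.5 in mutants. Length here is that of all annotated exons of a gene, so a gene with unused exons reads low. The longest coding transcript is much shorter for some members: 2222 against 9531 bases for Socs2, 2850 against 6419 for Cish and 6036 against 11349 for Socs6. For Socs1 both lengths are 2908 bases. The order, the places and the ratios above thus hold for this length only, and levels by transcript length were not computed.

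**Figure D3:**
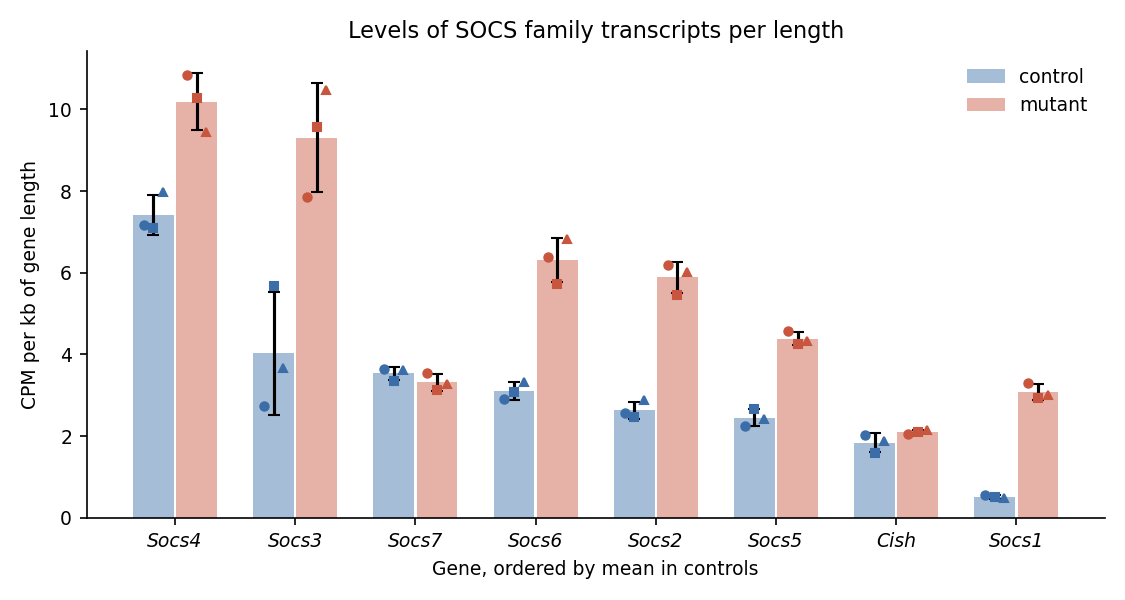
Levels of the SOCS transcripts in CPM per kb of gene length (linear axis from 0), as bars for the group mean, error bars for the SD and points for single libraries, ordered by the control mean. By this length, that of all annotated exons, Socs4 is highest in both groups, Socs1 is lowest in controls at 0.518, and Cish is lowest in mutants at 2.11.

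The genes whose levels ran most like each risen member over the 6 libraries were taken from 10304 genes with a mean of at least 5 CPM, by Pearson's r of log2 CPM. For Socs1 they were Col17a1, Bambi and Mrpl45, for Socs2 Atf4, Fam32a and Flvcr1, and for Socs3 Wars, Suco and Kctd14. For Socs4 they were Gtf3c6, Mob3a and Cars, for Socs5 Abcc8, Ptpro and Hs2st1, and for Socs6 Mogs, Parpbp and Homer2. All r values lay between 0.993 and 0.9998. Since 46.3% of genes passed the test between genotypes, these values are descriptions over 6 points that share the split into 2 genotypes, and the matches differ in size of change, from 0.20 on the log2 scale for Wars to 6.23 for Col17a1.

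Markers of some other cell types also differed between genotypes, and leukocytes are known to express Socs1, Socs3 and Cish. The counts below stand beside 23.5% of all tested genes called higher and 22.8% called lower. Of 13 tested macrophage and dendritic cell markers 12 rose and 1, C1qa, fell, and the summed level of that list went from 16.3 to 22.7 CPM in controls to 39.2 to 50.4 CPM in mutants. Of 10 tested T and NK cell markers 2 rose and 1 fell, no larger shares than those of all genes. Their sums were 10.6 to 14.2 and 10.9 to 15.02 CPM. The 3 tested B and plasma cell markers did not pass, with sums of 2.14 to 3.53 and 2.93 to 5.07 CPM. Of 5 tested neutrophil markers 4 rose, with sums of 9.37 to 13.2 and 13.3 to 40.1 CPM, most of it from Ly6g. Retnlg, Mpo and Elane of that list were too low to be tested, and Elane was at 0 in all controls. Endothelial markers rose for 2 of 6, with sums of 13.9 to 14.5 and 22.7 to 25.3 CPM. Fibroblast and muscle markers went the other way, with 6 of 9 lower and sums of 244 to 286 and 128 to 147 CPM. Of 10 epithelial markers 1 rose and 4 fell. The part of these cells in the SOCS rises was not tested.

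The other genes of cytokine signalling were read from 9 lists of receptors, kinases and targets, 178 genes in all. Of the 134 tested, 51 rose (38.1%) and 22 fell (16.4%), beside 23.5% and 22.8% of all genes, with a median log2 fold change of 0.25. 

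Among cytokines and hormones, 28 of 39 were too low to be tested, including Il6, Il10, Il22 and Ifng, each at a mean of 0.0800 CPM or less in both groups. Of the 11 tested 6 rose and 1 fell. Clcf1, a gp130 cytokine, rose from 0.311 ± 0.0668 to 2.16 ± 0.516 CPM, and Il23a, a subunit of interleukin 23, from 0.436 ± 0.129 to 2.15 ± 0.520 CPM. Il15, which sustains intraepithelial lymphocytes, fell from 20.4 ± 0.255 to 11.3 ± 1.25 CPM.

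Of 32 tested receptor genes 19 rose and 5 fell, with a median log2 fold change of 0.96. Csf2rb, the shared chain for GM-CSF and interleukin 3, rose from 0.822 ± 0.0705 to 25.7 ± 9.18 CPM, Lifr, the LIF receptor, from 1.85 ± 0.114 to 15.6 ± 2.25 CPM, and Il4ra, the interleukin 4 receptor, from 35.5 ± 0.668 to 99.2 ± 5.24 CPM. Further receptors were picked after their values were seen, because a SOCS protein is known to act on them. Il6st, which encodes the gp130 chain bound by the Socs3 protein, rose from 55.2 ± 4.90 to 117 ± 11.9 CPM, and Osmr, its oncostatin M partner, from 2.11 ± 0.672 to 49.0 ± 16.1 CPM. The growth hormone receptor Ghr, the chain that Socs2 acts on, fell from 23.5 ± 1.27 to 14.5 ± 1.30 CPM, and the prolactin receptor Prlr from 29.4 ± 0.556 to 10.6 ± 2.07 CPM. Il22ra1, the epithelial interleukin 22 receptor, fell from 42.8 ± 4.96 to 22.1 ± 3.10 CPM, and Il6ra, the interleukin 6 receptor, from 6.51 ± 0.864 to 4.21 ± 0.220 CPM. Receptors of the cytokines that Socs3 restrains thus changed in both directions. Csf3r, also on the neutrophil list, was among the receptors that rose. So were Il5ra, Il7r, Il2rg and Il10ra, at control means of 0.0787 to 0.374 CPM and mutant means of 1.14 to 1.97 CPM. Which cells in the preparations carried the receptor rises was not tested.

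Of 10 tested JAK and STAT genes 4 fell and 6 did not pass. Among them Stat5b, the growth hormone STAT, fell from 23.5 ± 0.657 to 18.1 ± 1.59 CPM, and the kinase gene Tyk2 from 47.0 ± 2.36 to 38.3 ± 0.235 CPM. Stat3, picked after its value was seen, fell from 123 ± 18.3 to 95.8 ± 4.54 CPM. These 3 falls were smaller than 1.5-fold.

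Inhibitors outside the family mostly did not pass: of 11 tested 1 rose and 1 fell. Pias4, a SUMO ligase that restrains STATs, rose from 44.1 ± 1.29 to 55.2 ± 4.33 CPM. Ptpn6, the phosphatase SHP-1, fell from 37.1 ± 2.38 to 31.7 ± 1.53 CPM (edgeR adjusted p = 0.0362), a call lost without control 1, control 3, mutant 1 or mutant 3 (adjusted p from 0.06005 to 0.1226). The Ptpn6 call was also lost with a replicate block (0.0856), by DESeq2 (0.0698) and with library-total scaling (0.182), as adjusted p. Pias1 stood at 33.7 ± 0.558 and 29.1 ± 2.66 CPM (edgeR adjusted p = 0.0563), and was called lower without mutant 2 (adjusted p = 0.0473).

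A list of 10 ubiquitin ligase genes held those of the Cullin 5 ligase that the SOCS box recruits, and also Cul2, Rbx1 and Ube2m. Of the 10 genes 2 rose (20%) and 1 fell (10%), no larger shares than the 23.5% and 22.8% of all tested genes. Ube2f, the NEDD8-conjugating enzyme for Cullin 5, rose from 23.1 ± 1.00 to 44.0 ± 1.24 CPM, and Rnf7, the RING subunit of the Cullin 5 ligase, from 8.03 ± 1.05 to 12.5 ± 0.965 CPM. Cul5 fell from 47.7 ± 3.41 to 40.0 ± 4.10 CPM (edgeR adjusted p = 0.0447), with overlapping groups and the call lost without control 2, control 3, mutant 2 or mutant 3 (adjusted p from 0.1002 to 0.1408). The Cul5 call was also lost with a replicate block (0.0931), by DESeq2 (0.0558), with library-total scaling (0.096) and with a stricter filter (0.066), as adjusted p. The Elongin genes Elob and Eloc, picked after their values were seen, stood at 52.1 ± 7.21 and 46.7 ± 3.75 CPM and at 23.5 ± 0.818 and 23.4 ± 1.01 CPM, and did not pass.

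STAT targets did not move as 1 block. Of 22 STAT3 targets 8 rose and 3 fell, with Junb up from 78.2 ± 4.85 to 191 ± 23.8 CPM, the NF-kB cofactor gene Bcl3 from 29.0 ± 1.66 to 54.5 ± 5.23 CPM and the survival gene Birc5 from 34.4 ± 1.22 to 50.4 ± 2.29 CPM; 2 of the 8, S100a8 and S100a9, are also on the neutrophil list. Of 9 tested STAT5 targets 6 rose and 3 did not pass, with Igf1 up from 1.52 ± 0.129 to 22.6 ± 2.67 CPM, the survival gene Bcl2l1 from 38.8 ± 1.55 to 56.7 ± 0.922 CPM and the cyclin gene Ccnd2 from 235 ± 18.2 to 359 ± 62.0 CPM. Within the family, Cish and Socs2 are both known STAT5 targets, and of these Socs2 passed and Cish did not. Of 7 tested STAT6 targets 4 rose and 2 fell: Il4i1, an amino acid oxidase, rose from 1.49 ± 0.296 to 85.2 ± 1.88 CPM, Chil3 from 0.0215 ± 0.0372 to 0.543 ± 0.131 CPM, near the floor, and the goblet cell gene Clca1 fell from 2135 ± 415 to 561 ± 142 CPM. Medians of these 3 lists were 0.33, 0.55 and 0.87 on the log2 scale.

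**Figure D4:**
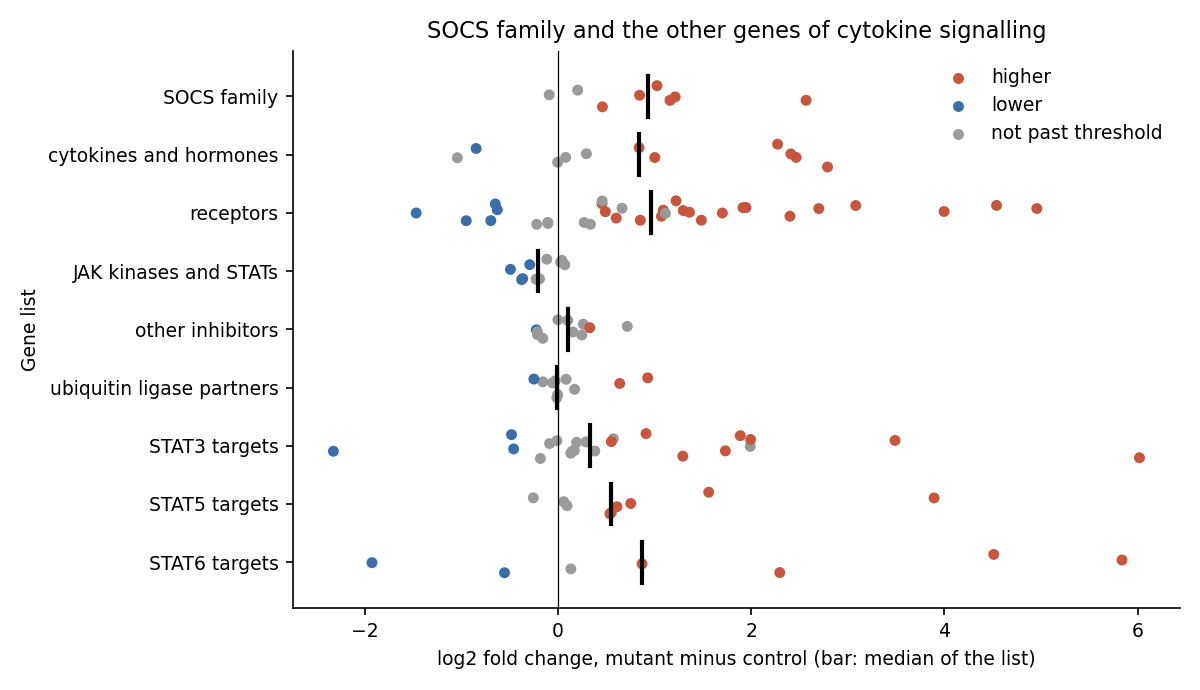
Log2 fold change, mutant minus control, of each tested gene of the SOCS family and of 8 of the 9 lists of cytokine signalling genes, 1 point per gene (red called higher, blue called lower, grey not past the threshold), with a black bar at each list's median. The medians are 0.93 for the SOCS family, 0.96 for receptors and -0.21 for JAK kinases and STATs, and the points of the other inhibitors and ligase partners crowd near 0.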

How the data were processed

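The authors deposited unnormalized counts per gene for each library. The submitters' processing notes name Trim Galore 0.6.5, STAR 2.6.1d and the GRCm38 build. The authors counted fragments with featureCounts 1.6.4 on GENCODE vM25 exons, strand-specific and without multi-mapping options, per the file headers. Strand-specific counting keeps antisense neighbours of Socs6 and Cish apart, but not Gm6409 and Gm50406, which overlap Socs6 on its own strand and held 0 to 20 counts per library.

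Counts were filtered with filterByExpr (minimum count 10, minimum total 15), scaled by TMM and tested with edgeR 4.0.16 in R 4.3.3, with genotype as the only term, 2-sided, p-values adjusted by Benjamini-Hochberg over 18539 genes and a threshold of 0.05. On simulated data with a dispersion for each gene, the share of false calls was 13.1%, above the threshold. Of simulated 1.5-fold changes 29.9% were recovered, of 2-fold changes 55.2% and of 4-fold changes 84.8%. Alternatives included DESeq2 1.42.0 and limma 3.58.1 (voom). The labels number 3 replicates per genotype and the study describes its mice as 3 pairs, but no source says which mice belong together, so the fit was unpaired and p-values measure the spread between these libraries.

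Named genes were all members, Mettl14, the 3 tested genes with the smallest p of each list, and the 3 most correlated genes of each risen member. Members and lists were chosen with earlier results of these data known. Leaving out mutant 1 and mutant 2 was chosen after seeing the data.

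Results for 1 pathway gene and for the target list named after it are not reported here.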

Additional observations from a re-analysis of the deposited data

How the results depend on the processing

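The 6 rises of the SOCS family kept their direction and call under all 17 alternatives, except that of Socs4 against a change of 1.5-fold (edgeR adjusted p = 1), where 5 members were called; Socs7 and Cish were called under none of them. Tried in turn were relative log expression, upper quartile and library-total scaling, no filter or a stricter one, DESeq2, limma-voom, a replicate block, the 1.5-fold null, removal of a ribosomal RNA row, leaving out each library, and leaving out mutant 1 with mutant 2, the last chosen after seeing the data. Log2 fold changes ran from 2.49 to 2.64 for Socs1, 1.10 to 1.23 for Socs2, 0.98 to 1.53 for Socs3, 0.32 to 0.53 for Socs4, 0.77 to 0.91 for Socs5 and 0.96 to 1.11 for Socs6. Against 1.5-fold, pathway genes called were 32 higher and 4 lower, and all genes 1720 higher and 1027 lower, since that test asks for more than a change. The ratio of the highest to the lowest mean level per kb in mutants ran from 4.70 to 5.06 when single libraries were left out, with 5.06 without mutant 3. For Mettl14 and the genes named from the pathway lists, 28 in all, no alternative reversed a direction, and 14 changed their call under at least 1. The genes named for their correlation with a member were not refitted.

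Deviations of same-numbered libraries from their group means, over all tested genes, correlated at -0.12, -0.0652 and -0.138. Paired mice need not correlate over all genes, so these values do not settle whether replicate numbers mark pairs. With the replicate block 6 members were called higher, and 3789 genes higher and 3614 lower in all. Depth limits Socs1 in controls, where 43 to 58 reads were counted.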
